A study of Mus musculus with 4 samples.

Results

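The mitochondrial ribosome, or mitoribosome, is the second ribosome of an animal cell: it sits in the mitochondrial matrix and makes the few respiratory chain subunits that mitochondrial DNA encodes. Its ribosomal RNAs come from mitochondrial DNA, while its proteins are encoded in the nucleus by the Mrps (mostly small subunit) and Mrpl (large subunit) genes, made in the cytosol and imported. Blood stem cells at rest are known for relying little on respiration, and mitochondrial translation is known to be needed as they divide and differentiate.

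Here 77 mitochondrial ribosomal protein genes were followed, out of 45232 gene rows in the count files, of which 15320 were tested. They are the protein-coding genes with a symbol made of Mrpl or Mrps and a number and with at least 10 counts over all libraries. The rule matched 82 symbols, and the 5 left out were annotated pseudogenes. All 77 passed the filter on low counts, and 0 were lost to the count minimum.

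RNA was measured in GFP+ LSK cells, a sort by lineage markers, Kit and Sca-1 that collects mouse blood stem cells with their early progeny. Mice had received GFP+ long-term haematopoietic stem cells (LT-HSCs) in which miR-99 had been knocked down (miR-99 KD, also KD here) or which carried a scrambled sequence as control (Scr), and cells were sorted 3 months later. The series' design gives 2 mice in each group, and each group had 2 libraries, named Scr 1, Scr 2, miR-99 KD 1 and miR-99 KD 2. Labels pasted after the counts number the libraries in another way: Scr 1 is Scr-2 there, miR-99 KD 1 is Zip99a-2 and miR-99 KD 2 is Zip99a-1, while the total given there for Scr-1 matches none of the 4 libraries. The numbers used here follow the titles. No label ties a library to a mouse, so p-values measure the spread between these libraries. Both groups shared transplantation, GFP and the sort; the sources used here give no strain, age or conditioning of the recipients.

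The microRNA family that the knockdown addresses is shown for its seed, the stretch that pairs with target messages. Sequences are from RefSeq (GRCm38.p6), 5′ to 3′, with the seed at bases 2 to 8 in capitals.
miR-99a-5p: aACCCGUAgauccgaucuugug
miR-99b-5p: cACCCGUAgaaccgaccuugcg
miR-100-5p: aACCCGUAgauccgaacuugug
All share 1 seed. Its matching site, UACGGGU in a message, was found in the annotated 3′ untranslated region of 0 of 76 members that have one of at least 50 bases, against 246 of 20344 protein-coding genes in the files (1.21%).

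Promoters of mitoribosomal genes are known to carry sites for transcription factors of the ETS family (which includes GABP) and for YY1. RefSeq promoter windows from 250 bases before to 50 bases after the start were matched by symbol for 68 of the 77 members. The ETS letters CCGGAAG, on either strand, were present in 25 of these 68 members (36.8%), and in 8.86% of all 32851 windows of this length. The YY1 letters AAGATGGCG were present in 8 members (11.8%) and 1.40% of windows. Letters of a site for the transcription factor NRF1 were searched as well, and were present in 3 members (4.41%) and 0.97% of windows. Counted per protein-coding gene, the shares were 13.4% for ETS, 2.27% for YY1 and 1.53% for NRF1. The matched members had 74 windows, and in 52 of them the bases after the start opened a transcript. A match of letters is a description of the window and not evidence of binding.

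The 150 bases before the start are printed for 2 members, chosen after their values were seen, to show how such a promoter reads. Motif letters are in capitals, on the strand of the gene. Mrps22 had the largest difference between the groups, and Mrpl22 lies at the peptide exit tunnel. Their windows in GRCm38.p6 are chr9:98601680-98601829 on the minus strand and chr11:58171514-58171663 on the plus strand.
Mrps22: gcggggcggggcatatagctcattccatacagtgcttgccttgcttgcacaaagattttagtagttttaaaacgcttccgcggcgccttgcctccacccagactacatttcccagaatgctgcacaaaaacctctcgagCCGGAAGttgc
Mrpl22: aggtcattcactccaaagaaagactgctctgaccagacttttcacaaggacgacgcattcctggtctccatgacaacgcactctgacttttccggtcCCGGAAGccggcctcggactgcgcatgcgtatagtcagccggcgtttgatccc

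Gene counts per library ran from 27295197 to 32350590, and the median member had 1816 counts in a library. The mature microRNA is not read by these libraries, and its precursor genes Mir99a, Mir99b and Mir100 had 0 counts throughout. Its host transcript Mir99ahg read 397 and 411 times in Scr against 132 and 195 in KD (counts), at an adjusted edgeR p of 0.248. Kit and Ly6a, which encodes Sca-1, were the genes of the sort that were read. Kit had 1149 and 1280 CPM in Scr against 670 and 774 in KD, and Ly6a had 46.5 and 22.8 against 12.4 and 22.3. With Cd34, Flt3, Slamf1 and Cd48, which subdivide LSK cells and were not part of the sort, all 6 had counts in every library and a log2 difference below 0. In 4 of the 6 both KD libraries were below both Scr libraries, against 26% of all genes tested, and 2 overlapped. At an adjusted p under 0.05, DESeq2 called 3 lower (Kit, Cd34 and Flt3) and 0 higher, against 4.13% and 1.66% of all genes. The summed CPM of the 6 (counts scaled to a common library total) was 2206 and 2753 in Scr against 1226 and 1209 in KD.

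Messages of the mitoribosome stood slightly higher in the KD libraries in most of the set, and no single gene passed the main test. The log2 difference, KD minus Scr, was above 0 in 73 of 77 members (69 with library totals alone or without Scr 2), with a median of 0.29, and in 51.4% of all genes tested, with a median of 0.02. In 59 members both KD libraries exceeded both Scr libraries, and they were below them in 2, Mrpl2 and Mrpl24. The other 16 overlapped. Over all genes tested the shares were 24.5% above and 26% below. Genes were tested by quasi-likelihood in edgeR, with p adjusted over all genes tested (Benjamini-Hochberg) at 0.05. This test called 0 members and 0% of all genes, and the lowest adjusted p of a member was 0.240.

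At an unadjusted edgeR p under 0.05, 22 members were higher and 0 lower, against 5.97% and 9.63% of all genes. DESeq2 called 1 member, Mrps22, at an adjusted p of 0.0440, and called 1.66% of all genes higher and 4.13% lower, with 0 members lower. These counts depended on the library left out. The 22 became 0 without Scr 1, 1 without Scr 2, 28 without KD 1 and 4 without KD 2. The share of all genes that were higher at this p moved as well, from 5.97% to 2.10%, 1.10%, 10.97% and 7.32%. The median difference was 0.31, 0.26, 0.36 and 0.27 in the same order. In bulk cells, a change in RNA per cell and a change in the mix of cells cannot be told apart.

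Together the members made up 0.519% of all gene counts in Scr 1 and 0.491% in Scr 2, against 0.560% in KD 1 and 0.615% in KD 2. Each member's log2 CPM was then set against its own mean over the 4 libraries. The median over the members was -0.12 in Scr 1, -0.20 in Scr 2, 0.11 in KD 1 and 0.21 in KD 2. Both knockdown libraries were therefore above both controls, with KD 2 the highest. That library was the highest of the 4 in 55 members and KD 1 in 19, whereas Scr 2 was the lowest in 51 and Scr 1 in 18.

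**Figure D1:**
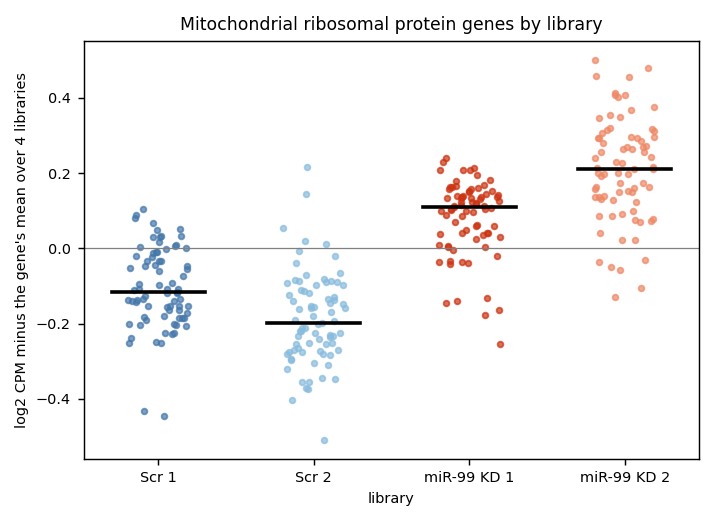
Each point is 1 of the 77 genes in 1 library, plotted as log2 CPM minus that gene's mean over the 4 libraries, with libraries along the x axis and black bars at the medians. The medians are -0.12 and -0.20 in Scr against 0.11 and 0.21 in KD, and the points of the groups overlap.

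Pairs of libraries gave the same order. Against Scr 1, 66 members were higher in KD 1 and 69 in KD 2, by medians of 0.23 and 0.33 on the log2 scale. Against Scr 2 the counts were 70 and 72 and the medians 0.29 and 0.41. Within groups, Scr 2 lay below Scr 1 in 55 members, with a median of -0.08 over all members, and KD 2 lay above KD 1 in 58, with a median of 0.15. The smallest of the medians between groups, 0.23, was thus above the larger of those within groups, 0.15. These pairs share libraries and are not separate evidence.

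The shift was narrow as well as one-sided. The middle part of the members, from the 25th to the 75th percentile, ran from 0.19 to 0.41 on the log2 scale. Over all genes tested the same percentiles were -0.38 and 0.30. Over the 10873 genes between the lowest and the highest member in level they were -0.34 and 0.28. That span takes in most genes tested, while 74 of the 77 members had at least 10 CPM in 2 libraries. It therefore does not match genes to the members by level. Replicates of a member differed by a median of 0.13 (log2) in Scr and 0.16 in KD, both smaller than the median difference between groups of 0.29.

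**Figure D2:**
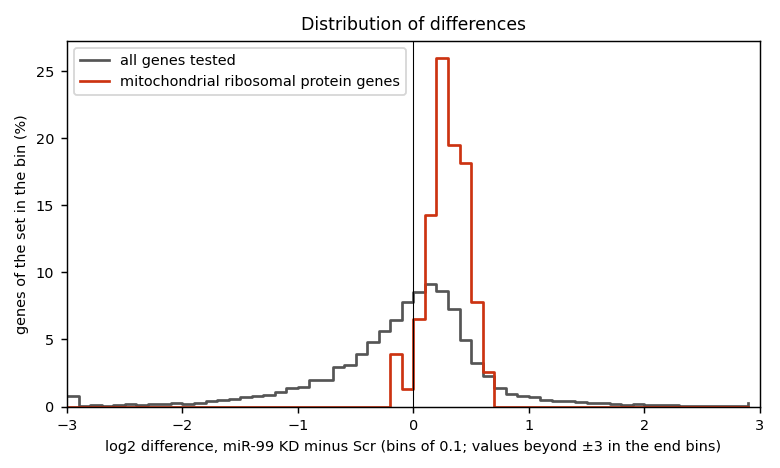
The share of genes (y axis, percent of the set) in each bin of 0.1 of the log2 difference (x axis), for the 77 mitochondrial ribosomal protein genes in red and all 15320 genes tested in grey. The red line is narrow and lies mostly above 0, with its median at 0.29, while the grey line is broad with its median at 0.02.

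By subunit the medians were close, and their difference was not tested. Of 26 small subunit members, all 26 had a difference above 0, with 21 not overlapping above and 0 below, and a median of 0.29. Of 50 large subunit members, including Mrps30 and Mrps18a, which are large subunit proteins despite their names, 46 were above 0, with 37 not overlapping above and 2 below. Their median was 0.30. Mrps36, also called Kgd4, is a subunit of the 2-oxoglutarate dehydrogenase complex and was counted in neither.

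Proteins inherited from the bacterial ribosome and those particular to mitochondria also stood close together. The 43 members with a bacterial counterpart had a median of 0.30, with 32 above and 2 below. The 31 members counted as particular to mitochondria had a median of 0.29, with 24 above and 0 below. They include Mrps18a and Mrps18b, which descend from a bacterial protein, while their paralog Mrps18c was counted with the first set. Both members that were below, Mrpl2 and Mrpl24, have a bacterial counterpart, and the difference between the sets was not tested.

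**Figure D3:**
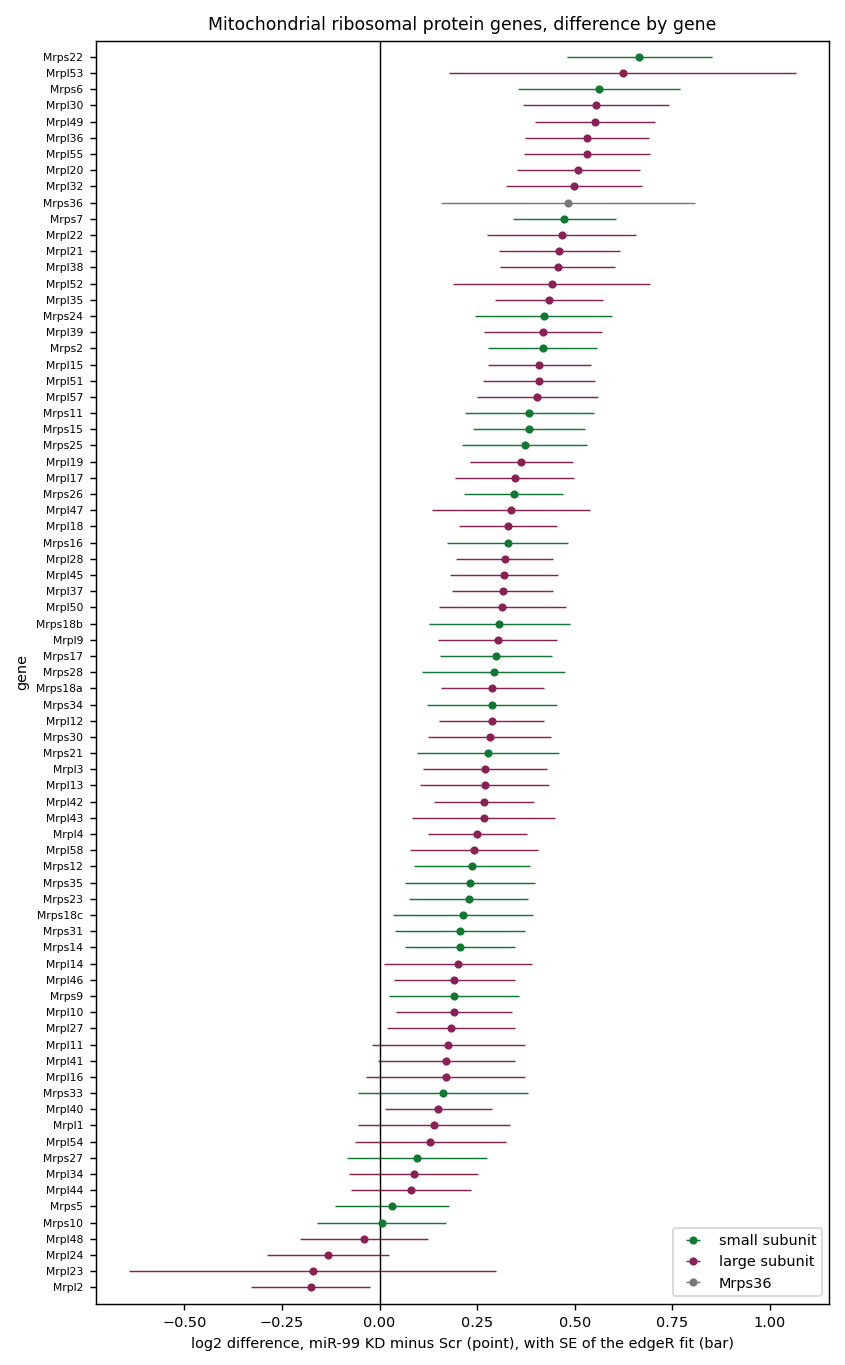
The log2 difference of each gene (points; x axis, KD minus Scr) with the standard error of the edgeR fit (bars), ordered by size along the y axis and coloured by subunit. Of the 77 points, 73 lie right of 0, from Mrps10 at 0.01 to Mrps22 at 0.67, and 4 lie left of it.

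Among small subunit proteins, Mrps22 (ENSMUSG00000032459), a protein particular to mitochondria that is mutated in a human mitochondrial disease, had the largest difference. Its CPM was 48.4 and 55.9 in Scr against 72.9 and 92.5 in KD. Both knockdown libraries were higher, and they also lay apart from each other. On the log2 scale KD minus Scr was 0.67 ± 0.19 (SE of the edgeR fit, 2 libraries per group, as for every log2 difference that follows), and the adjusted p by edgeR was 0.240.

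Mrps7 (ENSMUSG00000046756), an RNA-binding protein of the head of the small subunit, had the same adjusted p with closer replicates. Its CPM was 94.9 and 97.2 in Scr against 126 and 140 in KD. This gave a log2 difference of 0.47 ± 0.13. Mrps2, another protein with a bacterial counterpart, stood at 74.0 ± 1.7 CPM (mean ± SD, n = 2) in Scr and 98.9 ± 8.2 in KD.

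Mrps12 (ENSMUSG00000045948), which lines the decoding centre, had 48.5 and 50.8 CPM in Scr against 59.9 and 57.2 in KD. Its groups did not overlap, and its log2 difference was 0.24 ± 0.15. Mrps5, which also borders the path of the message, differed little between the groups: its CPM was 86.9 and 77.4 in Scr against 88.2 and 79.7 in KD. These values overlapped, with a log2 difference of 0.03 ± 0.15, and its direction turned to -0.057 with libraries scaled by their totals alone, -0.064 without Scr 2 and -0.046 without KD 1. Mrps10 was equally level, at 58.7 ± 1.1 and 58.9 ± 7.6 CPM. Mrps34, particular to mitochondria, had the tightest replicates of these, with 28.1 and 28.0 CPM in Scr against 34.1 and 34.5 in KD. Its edgeR adjusted p was 0.445. Of its exon bases, 63.4% are shared with Mapk8ip3 on the other strand and 37.0% with Nme3 on the same strand. Its row may therefore miss reads left out as ambiguous, and may hold some that are not its own.

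The Mrps18 paralogs are 3 proteins descended from 1 bacterial protein that now sit at different places in the ribosome. Mrps18a, in the large subunit, had 71.9 and 71.6 CPM in Scr against 85.8 and 89.5 in KD. Mrps18b had 24.0 and 23.4 against 30.9 and 27.7, and Mrps18c, which keeps the bacterial place, had 42.2 and 34.7 against 45.6 and 43.5. All 3 were higher in both knockdown libraries, with log2 differences of 0.29 ± 0.13, 0.31 ± 0.18 and 0.21 ± 0.18. Of their exon bases, 30.5% in Mrps18b and 23.2% in Mrps18c are shared with another annotated gene. Mrps36 had 5.11 and 4.05 CPM in Scr against 5.65 and 7.15 in KD.

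Among large subunit proteins, the smallest p belonged to Mrpl49, Mrpl36, Mrpl55, Mrpl20, Mrpl35, Mrpl38 and Mrpl15. Mrpl49 (ENSMUSG00000007338), particular to mitochondria, had 75.2 and 72.8 CPM in Scr against 98.0 and 119 in KD, a log2 difference of 0.55 ± 0.15. Mrpl36, whose bacterial counterpart binds zinc, had 106 and 93.0 CPM against 130 and 157. Mrpl20, whose bacterial counterpart acts early in subunit assembly, had 84.7 and 73.7 CPM against 104 and 122. In each the lower knockdown library was above the higher control. Mrpl55 stood at 36.7 ± 2.9 and 53.0 ± 1.4 CPM, Mrpl35 at 75.6 ± 4.7 and 102 ± 6.4, Mrpl38 at 83.1 ± 2.2 and 114 ± 13, and Mrpl15 at 119 ± 5.9 and 158 ± 10. The edgeR adjusted p of these 7 genes ran from 0.240 to 0.273.

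The stalk of the large subunit, which recruits translation factors, is built on Mrpl10, Mrpl11 and Mrpl12. Mrpl12 (ENSMUSG00000039640), which also binds the mitochondrial RNA polymerase, had 155 and 169 CPM in Scr against 207 and 189 in KD. Mrpl10 had 84.6 and 73.9 against 95.1 and 85.8. Both were non-overlapping, whereas Mrpl11, with 61.4 and 47.9 against 56.4 and 67.1, overlapped. The log2 differences were 0.29 ± 0.13, 0.19 ± 0.15 and 0.18 ± 0.20, and that of Mrpl11 was -0.0091 without Scr 2. Transcripts on the other strand share 14.1% of the exon bases of Mrpl10 and 13.1% of those of Mrpl12.

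Proteins around the peptidyl transferase centre, where peptide bonds form, were mixed. Mrpl3 had 109 and 109 CPM in Scr against 116 and 146 in KD, without overlap. Mrpl16 overlapped, with 70.7 and 64.8 against 63.6 and 88.8, and its difference of 0.17 was -0.089 without KD 2. Mrpl2 (ENSMUSG00000002767) was the member with the lowest difference, at 55.1 and 59.6 CPM in Scr against 49.0 and 52.6 in KD. This was a log2 difference of -0.18 ± 0.15, at an adjusted p of 0.604 by edgeR. Of the proteins along and at the end of the exit tunnel, Mrpl4 had 81.4 and 82.9 CPM in Scr against 96.1 and 99.3 in KD, without overlap. Mrpl24 had 64.4 and 63.2 CPM in Scr against 53.8 and 62.6 in KD. Its second knockdown library was close to the controls, and 26.3% of its exon bases are shared with Rrnad1 on the other strand. Mrpl22 had 23.0 and 21.7 against 28.2 and 33.5, and Mrpl45, which faces the inner membrane, had 72.5 and 79.5 against 91.3 and 98.3. Mrpl44, which has a fold of the RNase III family, overlapped at 54.8 ± 2.5 and 57.9 ± 4.0.

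Mrpl58, also known as Ict1, is a peptidyl-tRNA hydrolase that frees stalled ribosomes and became a structural part of the large subunit. It had 41.2 and 36.4 CPM in Scr against 45.0 and 46.7 in KD, without overlap, and a log2 difference of 0.24 ± 0.16. Mrpl41 overlapped, at 37.5 ± 3.8 and 42.3 ± 3.2. The widest gaps between replicates belonged to Mrpl52, Mrpl16, Mrpl1 and Mrpl30. Mrpl52 had 53.9 and 36.6 CPM in Scr against 53.9 and 69.1 in KD, so that Scr 1 equalled the first knockdown library. Mrpl1 had 51.3 and 51.1 against 48.3 and 64.5, and its difference of 0.14 was -0.081 without KD 2. Mrpl30 had 52.6 and 47.6 against 64.1 and 82.9, without overlap.

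Levels were compared between genes per length, as counts per kilobase of annotated exon, scaled to the same total in each library. The length takes in every annotated exon of a gene, so a long annotation lowers its level. On this scale the median member stood at 86.5 and the median gene tested at 18.3. Small subunit members had a median level of 70.4 and large subunit members one of 90.7. The levels ranged widely: 8 members were above 200, 48 between 50 and 200, and 21 under 50. The highest levels were those of Mrpl28 at 436, Mrpl18 at 414, Mrpl12 at 383 and Mrpl36 at 340. In the order of levels, 73 of 76 neighbouring pairs overlapped in their range over the 4 libraries. Neighbours are the closest pairs in such an order, and the ranges pool both groups. The overlap was therefore likely beforehand and does not show that neighbours had equal levels. The 3 breaks came below Mrps33, below Mrpl47 and below Mrpl53, all at the low end.

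**Figure D4:**
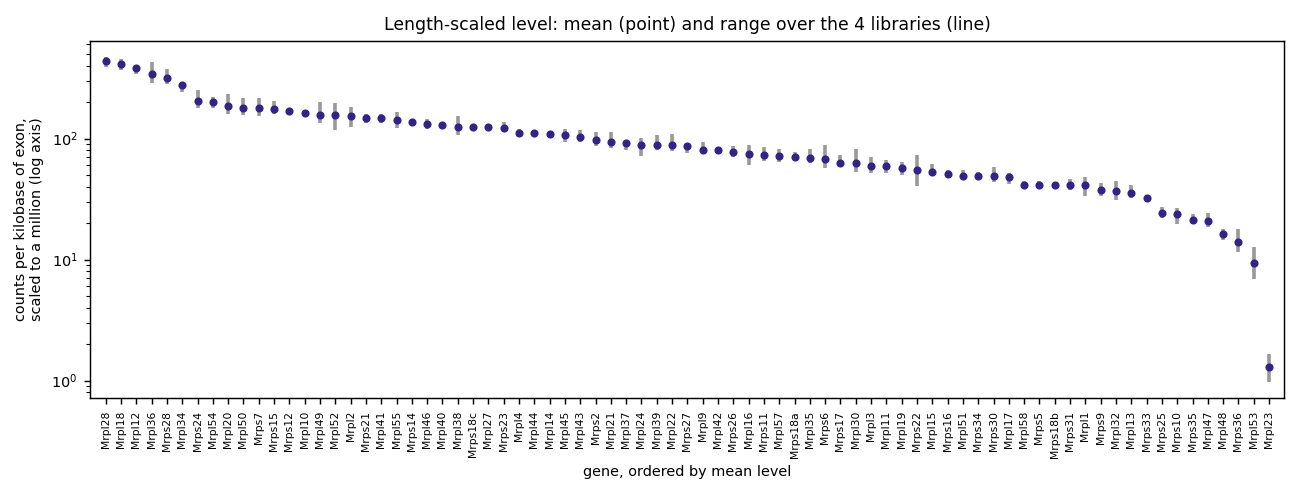
Length-scaled level of each gene (y axis, log scale; counts per kilobase of exon scaled to the same total in each library), ordered along the x axis by its mean over the 4 libraries (points), with the range over the libraries as lines. Levels run from 436 for Mrpl28 to 1.31 for Mrpl23.

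The lowest levels, 16.1 for Mrpl48, 14.0 for Mrps36, 9.43 for Mrpl53 and 1.31 for Mrpl23, belonged to genes that share sequence with another row. Whether sharing or annotated length set these levels was not tested. Mrpl23 had 62 and 65 counts in Scr against 42 and 54 in KD. Its processed pseudogene Mrpl23-ps1 had 1501 and 1045 in Scr against 1091 and 1270 in KD. All 438 bases of the Mrpl23 coding sequence are identical in the annotated pseudogene, so the row of Mrpl23 may not be a full measure of its message. Summed with its pseudogene, Mrpl23 stood at 46.7 and 38.1 CPM in Scr against 42.9 and 49.9 in KD, which overlapped.

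Mrpl48 shares 621 of 633 coding bases with Mrpl48-ps, and Mrps36 shares 304 and 303 of 306 with its pseudogene rows Mrps36-ps1 and Mrps36-ps2. Mrpl53 shares 695 of its exon bases with Gm42688 on the same strand. Mrpl48 had 40.9 and 40.3 CPM in Scr against 41.8 and 37.2 in KD, and its difference of -0.04 was 0.042 without KD 2. Summed with its pseudogene, Mrpl48 stood at 49.4 and 49.2 CPM in Scr against 50.8 and 45.7 in KD. In all, 17 members share over 10% of their exon bases with another gene. Among the 57 members with 10% or less and no annotated pseudogene copy, 44 were above, 1 below and 12 overlapped, with a median of 0.30.

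The rest of the mitochondrial translation apparatus was read from lists chosen for its parts. Beside the counts of these and later lists, the shares over all genes tested were 24.5% above and 26% below. DESeq2 called 1.66% of all genes higher and 4.13% lower. All 5 mitoribosomal proteins with other symbols (Dap3, Ptcd3, Aurkaip1, Chchd1 and Gadd45gip1) lay above in both knockdown libraries, with a median of 0.30. Dap3, a GTP-binding protein of the small subunit, had 148 and 147 CPM in Scr against 181 and 176 in KD. Gadd45gip1, of the large subunit, stood at 75.6 ± 9.6 CPM in Scr and 103 ± 3.6 in KD (mean ± SD, n = 2). Of 16 translation factors, 9 were above, 1 below and 6 overlapped, with a median of 0.29. Their log2 differences ran from -2.07 to 0.73, with 14 above 0 and 2 below 0. Mtrf1l, which releases the finished chain, had 19.2 and 20.7 CPM against 28.4 and 37.5. The elongation factor Gfm1 had 122 and 127 against 154 and 172, and Gfm2, which recycles ribosomes, had 59.4 and 60.1 against 84.6 and 77.1. edgeR called 0 genes of these lists, and DESeq2 0.

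Of 28 genes of mitoribosome assembly and rRNA modification, 13 were above, 2 below and 13 overlapped, with a median of 0.21. Noa1, a GTPase needed to build the small subunit, had 97.3 and 105 CPM in Scr against 138 and 176 in KD. Mpv17l2, needed for assembly, had 52.1 and 52.9 against 71.9 and 79.8. DESeq2 called both higher, at adjusted p of 0.0272 and 0.0492, and edgeR called neither, at 0.232 and 0.238. Of 20 mitochondrial aminoacyl-tRNA synthetase genes, 8 were above, 3 below and 9 overlapped, with a median of 0.11. Lars2 had 212 and 173 CPM against 247 and 299, while Vars2 had 40.9 and 61.2 against 33.4 and 34.2. Of 15 genes that copy and transcribe mitochondrial DNA, 7 were above, 3 below and 5 overlapped, with a median of -0.03 that ran from -0.047 to 0.13 without each library.

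Products of mitochondrial DNA itself followed another order of libraries. The ribosomal RNA mt-Rnr2 had 1806 and 586 CPM in Scr against 1324 and 2179 in KD, and mt-Rnr1 had 281 and 84.2 against 210 and 261. Scr 1 was high in both and the groups overlapped. Without Scr 2 their differences of 0.55 and 0.37 were -0.065 and -0.27. All 8 mitochondrial protein messages that passed the filter overlapped as well. Their median against the mean over libraries was 0.40 in Scr 1, -1.03 in Scr 2, 0.12 in KD 1 and 0.48 in KD 2. The RNAs of the mitoribosome and its protein messages therefore did not share 1 order of libraries, since the nuclear messages of the ribosomal proteins were below their mean in Scr 1.

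Cytosolic ribosomal proteins, the other ribosome of the cell, had a median of 0.37 over 84 genes. Their log2 difference was above 0 in 82 of 84, with 26 above in both knockdown libraries, 1 below and 57 overlapping. As shares these were 31.0% above and 1.19% below, against 24.5% and 26% of all genes tested. They stood at 0.03 in Scr 1, -0.37 in Scr 2, -0.04 in KD 1 and 0.40 in KD 2, so Scr 1 and KD 1 were close. The mitoribosomal genes separated those same libraries at -0.12 and 0.11. Whether the sets differ was not tested.

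**Figure D5:**
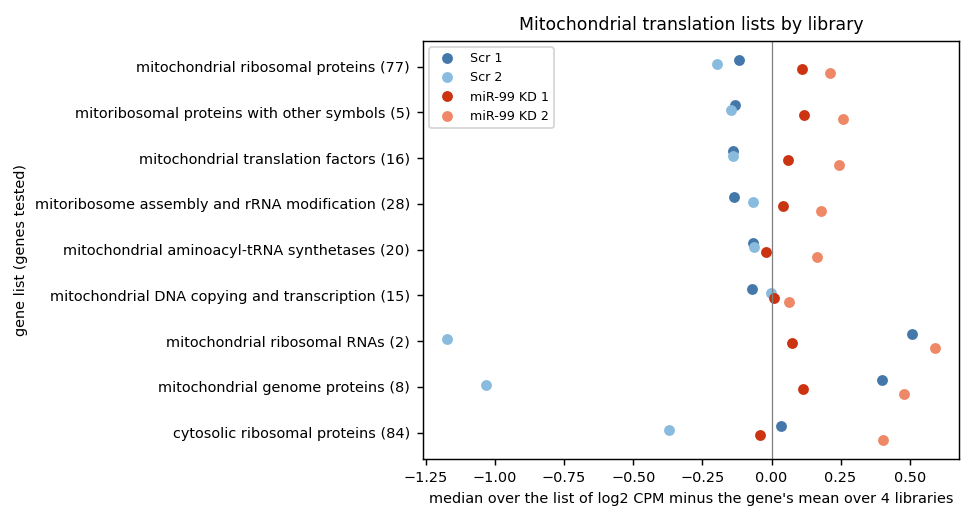
For each gene list (y axis, with the number of genes tested), the median over its genes of log2 CPM minus the gene's mean over the 4 libraries (x axis), 1 point per library. In the mitoribosomal list both Scr points lie left of both KD points, at -0.12 and -0.20 against 0.11 and 0.21, while in the lists of mitochondrial DNA products Scr 1 lies to the right, at 0.51 and 0.40.

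Markers of other cells moved with the libraries too, and their part in the result was not tested. Over all genes tested, 24.5% were above and 26% below, and DESeq2 called 1.66% higher. Of 16 erythroid markers, 10 were above, 0 below and 6 overlapped, and DESeq2 called 6 higher and 0 lower. Their summed level was 12845 and 10392 CPM in Scr against 16759 and 16612 in KD. The order of this sum, like that of the mitoribosomal genes, put both knockdown libraries above both controls. Among the 10 that were above, Cldn13 had 96.1 and 97.8 CPM in Scr against 183 and 186 in KD. Aqp1 had 481 and 488 CPM in Scr against 806 and 774 in KD, and Gata1 had 176 and 183 against 281 and 246. DESeq2 called these 3 higher, and edgeR called none of them. Globin genes and Alas2 were among the 6 that overlapped, with Scr 1 above KD 2. Hbb-bs had 1992 and 468 CPM in Scr against 2379 and 707 in KD, and Alas2 had 309 and 99.1 against 488 and 128. The 16 neutrophil markers all overlapped. They summed to 8990 and 6595 in Scr, 29585 in KD 1 and 5269 in KD 2. The mitoribosomal median was 0.36 without KD 1, where the neutrophil sum was highest. The 13 B cell markers summed to 101 and 44.6 in Scr, 328 in KD 1 and 94.0 in KD 2. All 12 that were tested had a log2 difference above 0, with a median of 1.84. Of these, 6 were above in both knockdown libraries, 0 were below and 6 overlapped, and DESeq2 called 3 higher. Macrophage markers ran from 205 in Scr 2 to 514 in Scr 1. Of 10 T and NK cell markers 4 passed the filter, and Cd3d, Cd3e, Cd3g, Cd8a, Ncr1 and Gzma did not. Of the 4, 0 were above, 1 was below and 3 overlapped. DESeq2 called 1 of them lower, against 4.13% of all genes. The 10 summed to 217 and 201 CPM in Scr against 149 and 112 in KD.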

How the data were processed

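Whole-number gene counts of 4 libraries were deposited by the authors, 1 file per library, made from total RNA of sorted cells after SMARTer amplification, per the labels' protocols. STAR, Picard, HTSeq and DESeq2 and the mm9 build are named, per the submitters' processing notes; the sources used here give neither their versions nor whether counting used strand. Reads that HTSeq assigned to no feature, listed as aligned more than once or listed as ambiguous stayed out of gene counts and library sizes. Of all reads listed in a file, unaligned ones included, they were 8.31 to 13.8%, 18.0 to 21.9% and 1.16 to 1.33%, in that order.

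The mitoribosomal genes and all gene lists were chosen with earlier results of these data known. Symbols, exon lengths and shared exons came from GENCODE M21, on a later build than the counts, and matched 44585 rows. Counts were tested with edgeR 4.0.16 in R 4.3.3 (filterByExpr, TMM scaling, quasi-likelihood test, no replicate term), with Benjamini-Hochberg adjustment over 15320 genes at 0.05. Standard errors are the log2 difference divided by the root of the F statistic. CPM uses TMM-scaled library sizes, and log2 CPM a prior count of 2. A group was called above where both its libraries exceeded both of the other group. Alternatives were DESeq2 1.42.0, limma-voom 3.58.1, other scalings and filters, a replicate term and leaving out each library. The scripts were tested on simulated data. Counting error is only part of the error that the libraries carry.

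Named genes were those with the smallest p in each direction, members with a set role in the ribosome, the 4 highest and lowest levels, the 4 widest gaps between replicates, and, per list, at most 3 genes by p. Mrpl22, Mrps10, Mir99ahg and some markers of the sort and of other cells were named beside these, and the text gives part of them.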

Additional observations from a re-analysis of the deposited data

How the results depend on the processing

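The direction of the set held in every alternative run: the members' median log2 difference stayed above 0, at 0.29 as reported, 0.20 with libraries scaled by their totals alone and 0.26 to 0.36 without each library. With totals alone the median of all genes was -0.07, and the members' median relative to it was 0.28, as in the reported fit. The members called were 0 with edgeR, against 0% of all genes. DESeq2 called 1 (Mrps22, higher), against 1.66% of all genes higher and 4.13% lower. Without miR-99 KD 1 the log2 difference of Mrps22 was 0.83 in edgeR. Members higher at an unadjusted p under 0.05 numbered 22 as reported, 6 with totals alone, 8 with the replicate block and 0 to 28 without each library. Over all genes the shares were 5.97%, 3.28%, 4.56% and 1.10 to 10.97%. Same-numbered libraries correlated at 0.057 over all genes in their deviations from the group means, and they were not treated as pairs. Members above in both knockdown libraries numbered 59 as reported, 47 with totals alone, 53 with upper-quartile scaling, and 60 to 68 without each library, when fewer libraries can overlap. Over all genes the shares above were 24.5%, 18.05%, 22.1% and 30.7 to 39.7%. Members below numbered 2 as reported and 2 to 6 without each library, against 26% and 36.9 to 41.3% of all genes. Members with a difference above 0 numbered 69 to 73 over all alternatives that tested the 77. The reported edgeR fit called 0% of all genes, so every gene named was uncalled in it, and directions turned in some of them. With totals alone, log2 differences were -0.057 in Mrps5 and -0.0067 in Mrpl44. Without each library, they ran from -0.13 to 0.042 in Mrpl48, -0.064 to 0.10 in Mrps5, -0.0091 to 0.34 in Mrpl11, -0.089 to 0.39 in Mrpl16, -0.081 to 0.33 in Mrpl1, -0.037 to 1.13 in mt-Nd6, -0.065 to 1.55 in mt-Rnr2 and -0.27 to 1.45 in mt-Rnr1. The cause was not tested. In alternatives chosen after seeing the data, DESeq2 called 0 members with the replicate block, 5 without miR-99 KD 1 and 0 without each other library. Over all genes it called 887 with every library, 390 with the block, 1506 without miR-99 KD 1, and 27 to 840 without each other library. A fit with 1 library in a group assumes that it varies like the other group. With 2 libraries a group and a median of 1816 counts per member, the number of libraries limits these values.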
